A study of Mus musculus with 8 samples.

Results

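The genes described here are 10 transcription factor genes that T cell biology links to effector, memory and naive states: Lef1, Tcf7, Id2, Id3, Zeb1, Zeb2, Bach2, Prdm1, Hlx and Twist1. They were picked by symbol from the 54146 genes with values, with earlier results of these data known. RNA was sequenced from EL4 cells, a T lymphoblast line from a C57BL/6 mouse lymphoma, after 4 h with the phorbol ester PMA at 50 ng/ml and ionomycin at 1 μM. There were 4 lines with 2 libraries each. GFP + Plum cells carried the fluorescent control proteins GFP and Plum, T-bet + Plum cells carried FLAG-T-bet with Plum, GFP + GATA3 cells carried GFP with HA-GATA3, and T-bet + GATA3 cells carried both tagged factors. All 8 libraries came from stimulated cells, so there was no resting control. Each combination was 1 retrovirally modified line, and the study defines replicates as harvests of the same line on different days, so p-values measure the spread between harvests and not between independently made lines. The comparisons address what FLAG-T-bet, HA-GATA3 and both together did to the RNA levels of these factors.

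T-bet and GATA3 are the lineage-defining factors of TH1 and TH2 cells. LEF1 and TCF1, the product of Tcf7, are HMG-box proteins that bind DNA and work with β-catenin or with Groucho/TLE corepressors, and both are high in naive and memory T cells. ID2 and ID3 lack a DNA-binding region and hold E proteins off DNA, and in CD8 T cells ID2 is associated with effector cells and ID3 with memory precursors. Prdm1 encodes BLIMP-1, a repressor of terminally differentiated lymphocytes, and BACH2, ZEB1, ZEB2, HLX and TWIST1 are further regulators of T cell differentiation or of TH1 responses.

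Lef1, Id2 and Id3 fell with FLAG-T-bet when averaged over the lines with and without HA-GATA3. In the T-bet effect averaged over GATA3 states, which sets the 4 libraries with FLAG-T-bet against the 4 without, Lef1 fell 2.19-fold, Id2 fell 2.57-fold and Id3 fell 1.80-fold. All 3 passed between the lines with HA-GATA3, and Lef1 alone passed between the lines without it. Prdm1 rose in the edgeR test from at most 4 counts per library to between 4 and 15, and Tcf7, Zeb1 and Bach2 did not pass the test. Zeb2 stayed at or below 4 counts per library and Hlx and Twist1 had no counts. No member passed the test for HA-GATA3 or for an interaction of both factors.

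Of the annotated Lef1 starts, windows before 2 are shown, because levels of protein-coding transcripts from both were lower with FLAG-T-bet. Of the other RefSeq windows of Lef1, chr3:131156044-131156293 lies downstream and chr3:131110047-131110296 largely overlaps the upstream window shown. These held no GGTGTG and are not shown. The windows are the 250 bases before a RefSeq start on build GRCm38.p6, plus strand, 5′ to 3′. The first, chr3:131110073-131110322, lies upstream of the gene. It ends before the Gencode start at 131110471, from which the transcripts were quantified, so it does not directly precede that start. The second, chr3:131112541-131112790, lies in intron 1. Capitals mark GGTGTG, the core of the motif bound by T-box proteins such as T-bet, on either strand (CACACC on the strand printed).
Lef1 upstream start: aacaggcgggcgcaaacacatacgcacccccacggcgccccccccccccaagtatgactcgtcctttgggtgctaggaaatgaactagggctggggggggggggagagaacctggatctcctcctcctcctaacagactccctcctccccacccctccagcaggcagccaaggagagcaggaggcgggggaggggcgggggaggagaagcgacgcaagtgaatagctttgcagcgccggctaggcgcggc
Lef1 start in intron 1: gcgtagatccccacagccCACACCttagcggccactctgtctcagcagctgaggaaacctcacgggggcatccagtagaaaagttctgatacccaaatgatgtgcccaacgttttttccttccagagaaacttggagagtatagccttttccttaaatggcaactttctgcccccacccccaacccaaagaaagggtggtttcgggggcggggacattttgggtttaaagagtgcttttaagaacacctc
The upstream window held no GGTGTG. In the intron 1 window the match began 232 bases before the start. Of all 32851 RefSeq promoter windows of 250 bases, 16.3% held GGTGTG on one strand or the other. AGATAA, a form of the GATA motif, was in 9.99% of them, and other forms were not searched. For the 9 members whose windows were searched, 7 of 16 windows held GGTGTG and 0 held AGATAA, and some of these windows overlap each other. The Id3 window held 1 GGTGTG and the Id2 window none, and each of these windows overlaps an exon of its gene. A match is a string of letters and was not examined for binding here.

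The introduced genes were at the levels the line names call for. Tbx21, which encodes T-bet, lay between 52.4 and 70.2 TPM (a level per transcript length, with an equal total for each library) in the 4 libraries with FLAG-T-bet and between 0.755 and 1.71 TPM in the other 4. Gata3 lay between 138 and 300.0 TPM with HA-GATA3 and between 11.4 and 27.6 TPM without. It was 263 and 300.0 TPM in GFP + GATA3 but 164 and 138 TPM in T-bet + GATA3. Without HA-GATA3 it was 24.8 and 27.6 TPM in GFP + Plum and 11.4 and 20.5 TPM in T-bet + Plum. Its averaged log2 FC for FLAG-T-bet was -0.67 (SE 0.14, edgeR FDR 0.0174). Lines with and without FLAG-T-bet were thus not matched in Gata3 level, and the part of this in the results was not tested. The total was between 8038565 and 16003519 estimated counts per library, with the fewest in T-bet + Plum replicate 1. Of the 9 T cell markers examined, 9 had more than 3 counts in some library, with a summed level of 773 to 1037 TPM with FLAG-T-bet and 821 to 925 TPM without, although Cd247 stayed at or below 0.511 TPM. The summed levels of 4 B cell, 5 myeloid, 3 erythroid and 3 fibroblast markers stayed at or below 0.891 TPM in every library. Of these, the myeloid sum was 0.123 to 0.210 TPM with FLAG-T-bet and 0.742 to 0.891 TPM without, and the fibroblast sum was 0.0192 to 0.0277 TPM with it and 0.246 to 0.408 TPM without. The 3 NK cell markers summed to 40.2 to 70.2 TPM with FLAG-T-bet and to 0.216 to 0.826 TPM without. Nearly all of this was Klrc1, while Ncr1 was 0 in all libraries and Klrb1c at most 0.0831 TPM. Their part in the results below was not tested.

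**Figure D1:**
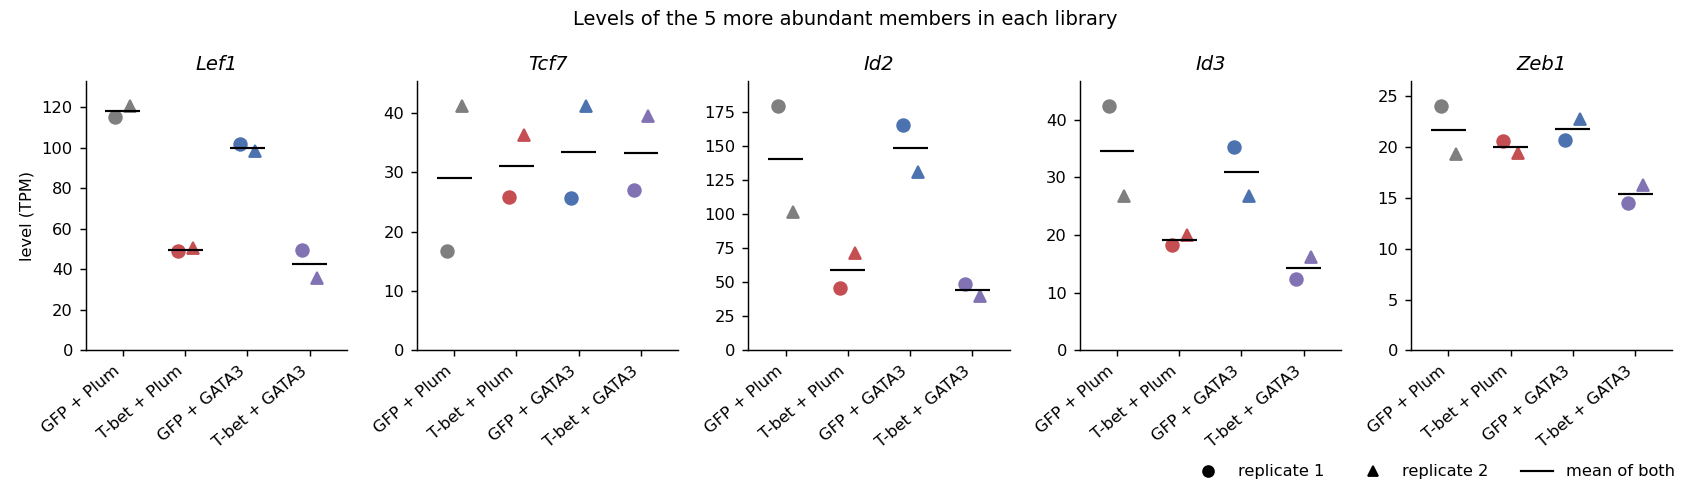
Level in TPM on the vertical axis of Lef1, Tcf7, Id2, Id3 and Zeb1 in the 4 lines, with a circle for replicate 1, a triangle for replicate 2 and a bar for their mean. Lef1, Id2 and Id3 lie lower in both lines with FLAG-T-bet, with no overlap, while Tcf7 differs more between replicates than between lines.

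Lef1 (chr3:131110471-131224356, plus strand) encodes the HMG-box factor LEF1. Its level was 115 and 121 TPM in GFP + Plum, 102 and 98.3 TPM in GFP + GATA3, 48.8 and 50.4 TPM in T-bet + Plum, and 49.3 and 35.8 TPM in T-bet + GATA3. The 4 libraries with FLAG-T-bet were thus all lower than the 4 without, at 46.1 ± 6.87 TPM against 109 ± 10.8 TPM (SD, n = 4 each). In bulk RNA, fewer cells with a transcript and less of it per cell cannot be told apart. The log2 FC of the averaged T-bet effect was -1.13 (SE 0.14, edgeR FDR 0.00138). It was -1.20 in T-bet + Plum versus GFP + Plum (SE 0.20, edgeR FDR 0.0119) and -1.06 in T-bet + GATA3 versus GFP + GATA3 (SE 0.20, edgeR FDR 0.0183). The averaged call was made in 17 of 17 alternative settings, with log2 FCs from -1.32 to -1.03. The call within a pair of lines was lost when a particular arm was cut to a single library, and kept when the other arm was. It was lost without either library of T-bet + Plum in the lines without HA-GATA3. In the lines with HA-GATA3 it was lost without either library of GFP + GATA3.

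The main Lef1 transcript began in intron 1. Its start lies 2326 bases after the upstream start and its first exon carries 9 coding bases, whereas the upstream first exon carries 207, or 69 codons, of the N-terminal part. The other 11 exons are shared between this transcript and the upstream one of the same exon number, so the forms differ in the N-terminal end, where β-catenin binds to full-length LEF1. This protein-coding transcript made up between 65.8% and 72.8% of Lef1 TPM in the 8 libraries. Its level was 79.3 and 88.0 TPM in GFP + Plum, 69.9 and 64.6 TPM in GFP + GATA3, 34.1 and 33.9 TPM in T-bet + Plum, and 33.4 and 26.1 TPM in T-bet + GATA3. The 3 protein-coding transcripts from the upstream start summed to 24.1 and 25.5 TPM in GFP + Plum, 22.4 and 25.8 TPM in GFP + GATA3, 10.2 and 12.4 TPM in T-bet + Plum, and 10.2 and 6.95 TPM in T-bet + GATA3. Neither start overlapped between the libraries with and without FLAG-T-bet. The ratio of the mean without FLAG-T-bet to the mean with it was 2.37 for the internal start and 2.46 for the upstream start, and the internal share overlapped, at 67.2% to 72.8% with and 65.8% to 72.8% without. As kallisto divides fragments between transcripts that share exons, these splits are estimates, and by estimated counts in place of TPM the mean internal share was 62.7%.

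**Figure D2:**
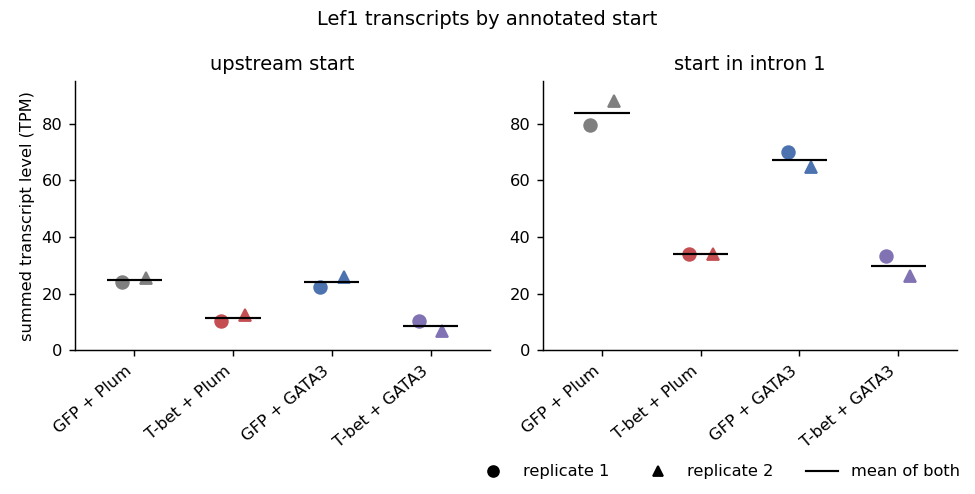
Summed level in TPM of protein-coding Lef1 transcripts from the upstream start (left) and from the start in intron 1 (right) in each library of the 4 lines, with the mean as a bar. Transcripts from both starts are lower in the 4 libraries with FLAG-T-bet.

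Tcf7 (chr11:52252371-52283014, minus strand), which encodes TCF1 and is the closest relative of Lef1 among the members, did not follow it. Its level was 16.7 and 41.2 TPM in GFP + Plum, 25.8 and 36.2 TPM in T-bet + Plum, 25.7 and 41.2 TPM in GFP + GATA3, and 27.0 and 39.4 TPM in T-bet + GATA3. The lines overlapped. In each of the 4 lines replicate 2 was higher, with the libraries numbered 1 between 16.7 and 27.0 TPM and those numbered 2 between 36.2 and 41.2 TPM. Nothing in the labels says that a number marks a shared harvest day. The averaged log2 FC for FLAG-T-bet was 0.14 (SE 0.31, 95% interval -0.47 to 0.74, edgeR FDR 0.820). With 1 library left out it ran from -0.14 to 0.59, so its sign depended on the library. The averaged change of Lef1 lies outside the 95% interval, but no direction was shown for Tcf7. The 2 Tcf7 transcripts code for the same length of protein, and the transcript from the downstream start held 77.6% to 82.1% of Tcf7 TPM.

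Id2 (chr12:25093799-25097140, minus strand), the most abundant member per length in the GFP + Plum line on average, encodes an inhibitor of E proteins. Its level was 180 and 102 TPM in GFP + Plum, 165 and 131 TPM in GFP + GATA3, 46.0 and 71.8 TPM in T-bet + Plum, and 48.7 and 40.1 TPM in T-bet + GATA3. All 4 libraries with FLAG-T-bet were lower than all 4 without, at 51.7 ± 13.9 TPM against 145 ± 34.9 TPM (SD, n = 4 each), although the harvests of GFP + Plum themselves differed widely. The averaged log2 FC was -1.36 (SE 0.20, edgeR FDR 0.00362), and it was called in 17 of 17 alternative settings. Within the GATA3 lines the log2 FC was -1.54 (SE 0.29, edgeR FDR 0.0206). That call was lost without any 1 of the 4 libraries of these lines, with edgeR FDRs between 0.0574 and 0.108. Without HA-GATA3 it was -1.18 (SE 0.29) and did not pass (edgeR FDR 0.0524), but passed with DESeq2 (adjusted p = 0.000339) and, in edgeR, without GFP + Plum replicate 2 (FDR 0.0351).

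Id3 (chr4:136143497-136145755, plus strand), the relative of Id2 with the same action on E proteins, was less abundant per length and moved the same way. Its level was 42.5 and 26.8 TPM in GFP + Plum, 35.2 and 26.7 TPM in GFP + GATA3, 18.2 and 20.01 TPM in T-bet + Plum, and 12.4 and 16.3 TPM in T-bet + GATA3. The 2 sets did not overlap, at 16.7 ± 3.26 TPM with FLAG-T-bet and 32.8 ± 7.60 TPM without (SD, n = 4 each). The averaged log2 FC was -0.85 (SE 0.14, edgeR FDR 0.00587) and was called in 17 of 17 alternative settings. It was -0.91 in the GATA3 lines (SE 0.20, edgeR FDR 0.0378) and -0.79 in the lines without HA-GATA3 (SE 0.20, edgeR FDR 0.0594). The call in the GATA3 lines was lost without any 1 of their 4 libraries or of the 2 T-bet + Plum libraries, with edgeR FDRs between 0.0743 and 0.220, and with transcript length offsets (edgeR FDR 0.0564) or limma on TPM (FDR 0.0679 and 0.0705). The difference without HA-GATA3 passed with DESeq2 (adjusted p = 0.0170). Across the 8 libraries, Pearson's r of log2 CPM (counts scaled to library size with edgeR's TMM factors, not per length) between Id2 and Id3 was 0.93, which describes libraries that share the FLAG-T-bet difference.

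Zeb1, a zinc finger repressor of Il2 among other genes, had levels of 24.1 and 19.3 TPM in GFP + Plum, 20.7 and 22.8 TPM in GFP + GATA3, 20.6 and 19.4 TPM in T-bet + Plum, and 14.5 and 16.2 TPM in T-bet + GATA3. In TPM the libraries with and without FLAG-T-bet overlapped, and in CPM they did not, at 58.5 to 70.4 with and 71.6 to 80.8 without. The averaged log2 FC was -0.23 (SE 0.09) and did not pass (edgeR FDR 0.126).

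Prdm1 (chr10:44437177-44528501, minus strand) was near the detection limit. It had 2 and 0 counts in GFP + Plum, 3 and 4 in GFP + GATA3, 4 and 15 in T-bet + Plum, and 8 and 12 in T-bet + GATA3. On the CPM scale the 4 libraries with FLAG-T-bet, from 0.498 to 1.03, lay above the 4 without, from 0 to 0.287, where 3 counts are worth 0.186 to 0.373 CPM. Summed over libraries, 39 counts with FLAG-T-bet against 9 without gave a ratio of 5.37 after scaling for depth, with an exact 95% interval of 2.56 to 12.6 that covers counting error only. For T-bet + Plum over GFP + Plum the ratio was 13.4, from 19 and 2 counts, with an interval of 3.23 to 118. For T-bet + GATA3 over GFP + GATA3 it was 3.08, from 20 and 7 counts, with an interval of 1.25 to 8.63. The averaged log2 FC was 2.54 (SE 0.59, edgeR FDR 0.0233), a value that depends on the prior count. This call was made in 6 of 16 alternative settings. It was lost with DESeq2 (adjusted p = 0.0601), with limma on TPM, and without any 1 library other than GFP + Plum replicate 1 and T-bet + Plum replicate 1 (edgeR FDR 0.0571 to 0.135).

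Bach2, whose product represses effector genes and Prdm1 in lymphocytes, also had few counts. It had 16 and 6 counts in GFP + Plum, 9 and 8 in GFP + GATA3, 5 and 10 in T-bet + Plum, and 16 and 11 in T-bet + GATA3. The lines overlapped, and the averaged log2 FC was 0.38 (SE 0.47, 95% interval -0.55 to 1.31, edgeR FDR 0.649). Zeb2, the relative of Zeb1 that is high in effector T cells, had 18 counts over the 8 libraries and at most 4 in any of them. It was below the low-count filter. An exact two-sided permutation test between the 4 libraries with FLAG-T-bet and the 4 without gave p = 0.143 for TPM and p = 0.229 for CPM. The 70 arrangements allow no p below 0.0286. Hlx, a homeobox partner of T-bet in TH1 cells, and Twist1, which restrains TH1 responses, had 0 counts in all 8 libraries. A count of 0 allows up to 3 counts, or 0.186 to 0.373 CPM in these libraries, so transcripts were not detectable at this depth.

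**Figure D3:**
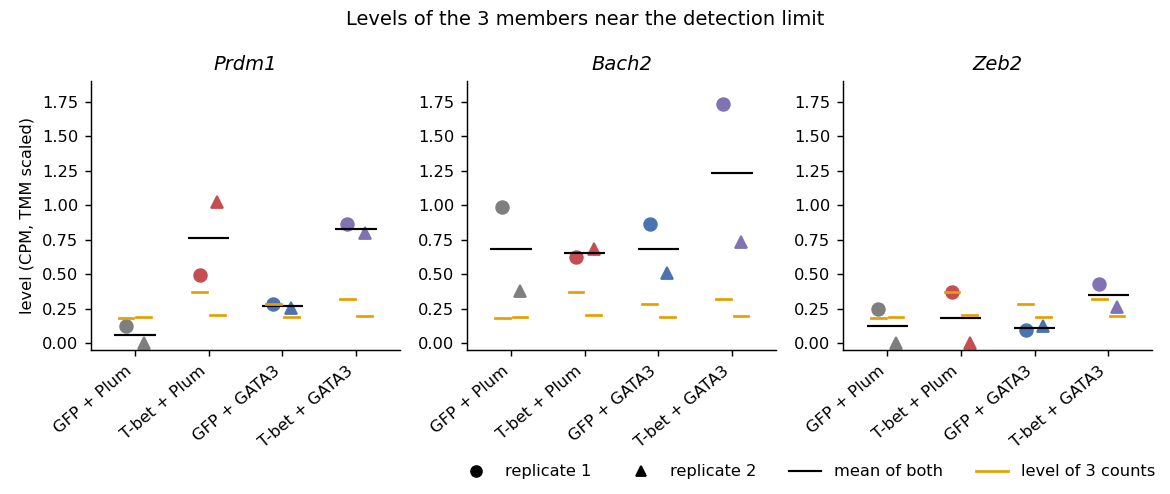
Level in TMM-scaled CPM on the vertical axis of Prdm1, Bach2 and Zeb2 in each library of the 4 lines, with black bars for the mean of both replicates and orange bars for the level that 3 counts would give in that library. Prdm1 is highest in the 4 libraries with FLAG-T-bet, all above their orange bars, Bach2 overlaps between lines and Zeb2 stays near the bars.

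Of the 10 members, 7 passed the low-count filter and entered the test with 14791 genes. In the averaged T-bet effect, 3 fell, where 6.61% of all genes tested fell, and 1 rose, where 8.55% rose. Past a log2 FC of 1.5 in size there was 1, Prdm1, where the share of all genes was 4.5%. The median log2 FC was -0.23 over the 7 members and 0.02 over all genes. In CPM, 5 of the 7 did not overlap between the libraries with and without FLAG-T-bet, which was so for 22.7% of all genes. These shares describe 7 genes, chosen with earlier results of these data known, and were not tested as a set.

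Between single lines the counts were smaller. In T-bet + Plum versus GFP + Plum only Lef1 fell, against 2.16% of all genes, and 0 members were past 1.5 in size, against 3.02%. In T-bet + GATA3 versus GFP + GATA3 Lef1, Id2 and Id3 fell, against 2.05% of all genes, and Id2 was past 1.5, against 2.85%. In T-bet + GATA3 versus GFP + Plum the same 3 genes fell, against 1.43% of all genes, and Id2 was past 1.5, against 2.61%. Here the log2 FC was -1.35 for Lef1 (SE 0.20, edgeR FDR 0.00798), -1.503 for Id2 (SE 0.29, edgeR FDR 0.0249) and -1.08 for Id3 (SE 0.20, edgeR FDR 0.0210). When the 4 libraries of this comparison were fitted alone, 0 members passed. The calls of Id2 and Id3 were also lost without GFP + Plum replicate 1 or either T-bet + GATA3 library, and that of Id3 with limma on TPM. This comparison shares libraries with both of the others, so its calls are not separate evidence.

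No member was called for HA-GATA3. In GFP + GATA3 versus GFP + Plum 0 of the 7 passed, where 0.0203% of all genes did, and 0 had an unadjusted p below 0.05 in edgeR. The log2 FC was -0.28 for Lef1 (95% interval -0.66 to 0.09), 0.03 for Id2 (-0.52 to 0.58) and -0.17 for Id3 (-0.56 to 0.21). With T-bet + GATA3 set against T-bet + Plum, 0 passed as well, against 0.0338% of all genes, also with 0 at an unadjusted p below 0.05. The log2 FC was -0.15 for Lef1 (-0.53 to 0.23), -0.32 for Id2 (-0.89 to 0.25) and -0.29 for Id3 (-0.69 to 0.11). DESeq2 called 0 members in both.

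Whether FLAG-T-bet acted differently beside HA-GATA3 was tested as an interaction. It was called for 0 members in edgeR and DESeq2, with 0 at an unadjusted p below 0.05 in edgeR, and for 0.0% of all genes in edgeR. Its log2 value was 0.13 for Lef1 (95% interval -0.40 to 0.67), -0.35 for Id2 (-1.14 to 0.44), -0.12 for Id3 (-0.67 to 0.44) and -1.89 for Prdm1 (-4.26 to 0.48). The intervals are wide enough that a smaller or larger effect beside HA-GATA3 was not detectable with 2 libraries per line.

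**Figure D4:**
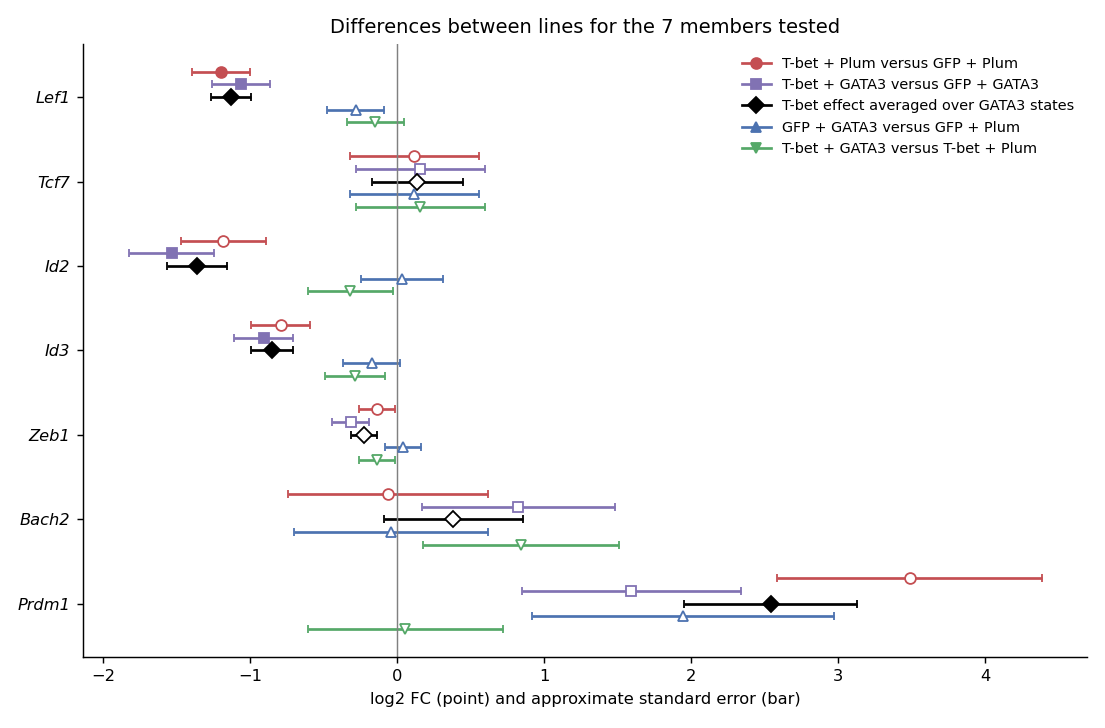
Log2 FC on the horizontal axis with its approximate standard error for the 7 members tested, in 5 comparisons shown by colour and shape, where filled symbols mark an edgeR FDR of at most 0.05. Lef1, Id2 and Id3 lie left of 0 in the 3 comparisons of FLAG-T-bet, and the comparisons of HA-GATA3 hold no filled symbol.

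The genes whose levels followed Lef1 most closely over the 8 libraries were Klhl2, Rnf185 and Trim44, with Pearson's r of log2 CPM of 0.984, 0.980 and 0.976. They were chosen for this likeness, which has no test. Among the members Id2 came closest to Lef1, with r = 0.90, and Tcf7 had r = -0.24.

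Genes around the members were followed in the averaged T-bet effect through 6 lists, whose counts stand beside the 8.55% of all genes tested that rose and the 6.61% that fell. Of the 8 E proteins and further regulators of that family, 2 had enough counts and both fell. Tcf3, which encodes the E2A proteins that ID2 and ID3 bind, lay between 30.0 and 36.0 CPM with FLAG-T-bet and between 48.5 and 55.2 CPM without (log2 FC -0.61, SE 0.09, edgeR FDR 0.00294). Tcf12, which encodes the E protein HEB, lay between 85.4 and 106 CPM with and between 120 and 159 CPM without (log2 FC -0.58, SE 0.10, edgeR FDR 0.00642). Thus genes for both the inhibitors and their partners fell in the averaged effect. Between the lines without and with HA-GATA3, the edgeR FDR was 0.0132 and 0.0667 for Tcf3, and 0.0692 and 0.0371 for Tcf12. The median log2 FC of these 2 genes was -0.59.

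Of 16 tested LEF/TCF partners and Wnt target genes, 2 rose, 1 fell and 13 did not pass, so its shares were near those of all genes, with a median log2 FC of -0.11. Myc, a growth regulator and known Wnt target, rose by 0.79 on the log2 scale (SE 0.11, edgeR FDR 0.00216). Bcl9, which encodes a β-catenin cofactor, rose by 0.49 (SE 0.12, edgeR FDR 0.0329). Ctnnb1, which encodes β-catenin itself, fell by 0.41 (SE 0.10, edgeR FDR 0.0285). Between the lines without and with HA-GATA3, Bcl9 (edgeR FDR 0.122 and 0.224) and Ctnnb1 (edgeR FDR 0.124 and 0.184) did not pass.

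Of 14 tested naive and memory T cell genes, 5 fell, where 6.61% of all genes did, and 1 rose, where 8.55% did. Their median log2 FC was -0.44. Il7r, the IL-7 receptor chain of naive and memory cells, lay between 0.752 and 4.11 CPM with FLAG-T-bet and between 10.97 and 19.0 CPM without (log2 FC -3.19, SE 0.41, edgeR FDR 0.00166). Il6ra, an IL-6 receptor chain, had a log2 FC of -1.75 (SE 0.23, edgeR FDR 0.00174), and Ccr7, the lymph node homing receptor, had one of -1.32 (SE 0.23, edgeR FDR 0.00785). Between the lines without and with HA-GATA3, Ccr7 did not pass (edgeR FDR 0.0671 and 0.0534), while Il7r and Il6ra passed in both.

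Of 20 tested effector T cell genes, 9 rose, where 8.55% of all genes did, 0 fell and 11 did not pass, with a median log2 FC of 0.29. Ifng, which encodes the TH1 cytokine interferon-γ and is a known T-bet target, lay between 2788 and 3970 CPM with FLAG-T-bet and between 0.186 and 0.698 CPM without (log2 FC 12.71, edgeR FDR 3.54e-07). The chemokine genes Ccl3 and Ccl4 had log2 FCs of 6.35 and 6.88 (edgeR FDR 4.53e-06 and 9.04e-06). Gzma, which encodes a granzyme of cytotoxic cells, had one of 2.06 (edgeR FDR 3.82e-05).

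Of the 7 partners and relatives of BACH proteins, 2 fell, Maff (log2 FC -0.92, edgeR FDR 0.00436) and Nfe2l2 (log2 FC -0.78, edgeR FDR 0.0154), which encode a small MAF protein and the oxidative stress factor NRF2. Between the lines without and with HA-GATA3, Nfe2l2 did not pass (edgeR FDR 0.149 and 0.0669). Maff passed only without it (edgeR FDR 0.0200 and 0.0769). The list's median log2 FC was -0.14. Of 11 relatives, partners and targets of ZEB and TWIST factors, 3 were tested, with a median of -0.15. Il2, which encodes the T cell growth factor IL-2, rose by 1.65 on the log2 scale (SE 0.17, edgeR FDR 0.000673). Vim, which encodes the intermediate filament vimentin, fell by 1.21 (SE 0.19, edgeR FDR 0.00435). Vim passed between the lines with HA-GATA3 (edgeR FDR 0.0224) but not between those without it (edgeR FDR 0.0644). The medians stand beside 0.02 over all genes tested, and no list was tested as a set. The lists too were chosen with earlier results of these data known.

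**Figure D5:**
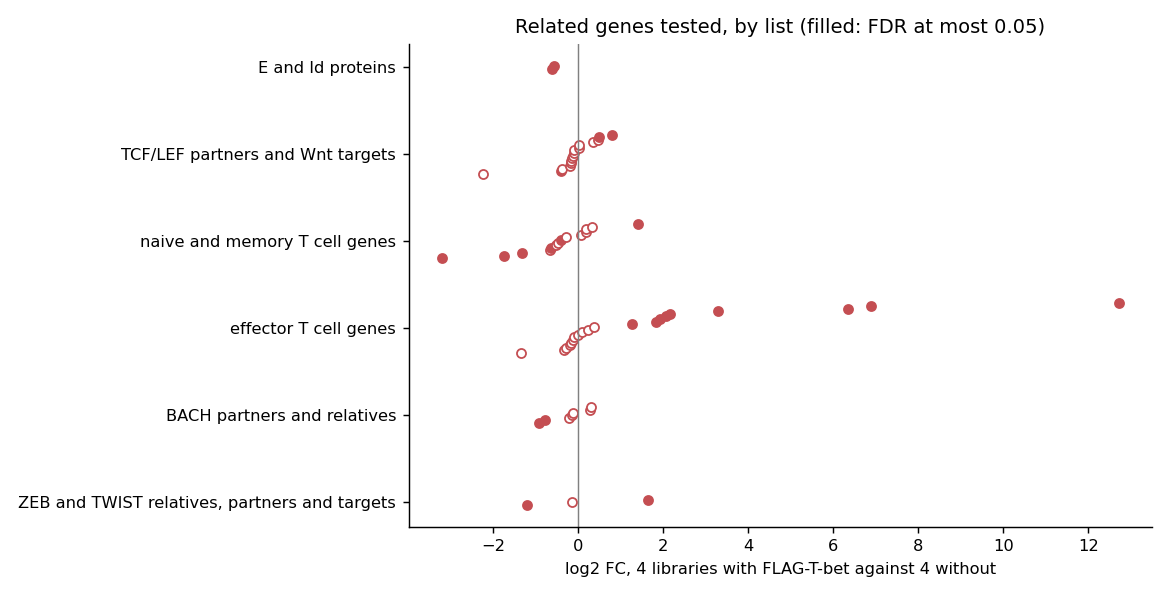
Log2 FC on the horizontal axis of the averaged T-bet effect for the genes tested in each of 6 lists, 1 circle per gene, where filled circles mark an edgeR FDR of at most 0.05 and the vertical offset within a list only separates the circles. The effector list holds 9 filled circles, all right of 0, and the naive and memory list 5 left of 0 and 1 right of it.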

How the data were processed

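RNA-seq values of 8 EL4 libraries were used. Per the labels, the authors checked and trimmed reads (FastQC, Trim Galore) and estimated transcript levels by kallisto on mouse build mm10 (GRCm38). The deposited estimated counts are not normalized, and the deposited TPM were scaled by the authors to a fixed total over 136535 Gencode transcripts without pooling replicates. The methods name a Gencode release that differs from the label in the files, and the legend of the study gives 3 replicates where values for 2 per line were analysed here.

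Estimated counts and TPM were summed per gene identifier, and counts were rounded. Positions came from Gencode M21 on GRCm38, which held 54079 of the 54146 gene identifiers, and promoter windows from RefSeq (GRCm38.p6). One edgeR 4.0.16 quasi-likelihood fit (R 4.3.3) covered the 4 lines with TMM scaling and filterByExpr. It left 14791 genes with 4 residual degrees of freedom, and Benjamini-Hochberg adjustment ran over all of them. A gene changed at an FDR of at most 0.05. Standard errors were taken from each log2 FC and its F statistic (absolute value over the root of F) and are approximate. The 95% intervals of log2 FCs were built from them with a normal multiplier. That does not allow for the few degrees of freedom, so these intervals are too narrow. Each library's total count is given as a range in the results, and counting intervals cover counting error only.

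The members and lists were chosen with earlier results of these data known. Named were all members, up to 4 genes of each list with the smallest FDR at or below 0.05 in the averaged T-bet effect, the 3 protein-coding genes most like the member with the smallest FDR, and Tbx21 and Gata3. One gene that this rule names is not reported here. The symbol Tle5 was not among the deposited identifiers, and its older name Aes was used. The script was tested on simulated data for 14791 genes. Alternatives were DESeq2 1.42.0 with and without transcript length offsets, edgeR with the same offsets, library size in place of TMM, no low-count filter, at least 10 counts in every library, limma 3.58.1 on log2(TPM + 1) and log2(TPM + 0.1), a replicate block, the libraries of a comparison alone, each library left out, and a log2 FC above 1.5 in size. Log2 CPM used a prior count of 2. Exact counting intervals used scipy 1.17.1 and exact permutation tests numpy 2.4.6, in Python 3.11.15 with pandas 2.3.3 and matplotlib 3.10.9. Other data types of the study were not used here.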

Additional observations from a re-analysis of the deposited data

How the results depend on the processing

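In the averaged T-bet effect, Lef1, Id2 and Id3 fell and passed in all 17 alternatives run for each, while Prdm1 passed in 6 of 16, and its log2 FC ran from 0.19 (limma on log2(TPM + 1)) to 3.97 (without GFP + Plum replicate 1). Members changed there numbered 3 to 4 when 1 library was left out, and 1 past a log2 FC of 1.5. In T-bet + Plum versus GFP + Plum 1 member passed, but 3 with the replicate block, with DESeq2 and with DESeq2 and length offsets, 2 with scaling by library size, 4 with no low-count filter, 0 past 1.5 in size, and 0 to 3 when 1 library was left out (3 without GFP + Plum replicate 2, 0 without either T-bet + Plum library). In T-bet + GATA3 versus GFP + Plum 3 passed, but 0 with the libraries of the comparison alone, 1 past 1.5 in size and 1 to 3 when 1 library was left out (1 without GFP + Plum replicate 1 or either T-bet + GATA3 library). In T-bet + GATA3 versus GFP + GATA3 3 passed, but 1 past 1.5 in size and 0 to 3 when 1 library was left out (0 without either GFP + GATA3 library, 1 without either T-bet + GATA3 library). The cause of these changes was not tested beyond the smaller number of libraries. Counts of 0 for HA-GATA3 and the interaction stayed at 0 in every alternative run. No member that was called turned its sign. Signs of members that were not called turned when 1 library was left out, with log2 FCs from -0.14 to 0.59 for Tcf7 in the averaged effect, -0.44 to 1.02 in T-bet + Plum versus GFP + Plum and -0.15 to 0.55 in T-bet + GATA3 versus GFP + GATA3. They ran from -0.25 to 0.38 for Id2 and -0.38 to 0.069 for Id3 in GFP + GATA3 versus GFP + Plum, and from -0.49 to 0.12 for Lef1 and -0.61 to 0.057 for Id2 when T-bet + GATA3 was set against T-bet + Plum. For the interaction they ran from -0.20 to 0.40 for Lef1, -0.70 to 0.023 for Id2 and -0.36 to 0.092 for Id3.

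The replicate numbers were not treated as pairs, since the labels do not tie them to a shared day. The correlation of deviations from the line means lay between -0.0455 and 0.302 and was over 0.1 in 4 of 6 pairs of lines. Whether the replicate numbers mark shared harvests is not known. With the replicate block, T-bet + Plum versus GFP + Plum gained Id2 (log2 FC -1.14, edgeR FDR 0.0435) and Id3 (log2 FC -0.78, edgeR FDR 0.0409), and no other call of a member changed. Depth limits Prdm1, Bach2 and Zeb2, which had at most 16 counts in any library, and says nothing of Hlx and Twist1 below 3 counts.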
